A study of Homo sapiens with 9 samples.

Results

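The genes described here are 9 that encode, or drive, the smooth-muscle type contractile apparatus: ACTA2, ACTG2, TAGLN, CNN1, MYL9, TPM1, TPM2, CALD1 and SRF. They were chosen by symbol out of 19775 genes named on the arrays, and 34 of the 54675 probe sets on each array carry one of these symbols and no other. The list was drawn up with results of these arrays already known, and the rule behind it names no contrast and no threshold. Every value given for the 9 is therefore a description, and no test of them is offered as support. A gene is represented by its brightest probe set unless another is mentioned, and its level is the deposited linear signal, which has no unit. A gene entered the model when that signal exceeded the array median on at least 3 arrays. By this filter 7 of the 9 were fitted, whereas TAGLN and CNN1 were not.

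Smooth muscle contracts when myosin pulls on actin filaments. ACTA2 and ACTG2 encode the actins of smooth muscle, MYL9 the regulatory light chain of its myosin, TPM1 and TPM2 the tropomyosins that lie along the filament, and CALD1, CNN1 and TAGLN the filament-binding proteins caldesmon, calponin and transgelin. SRF encodes serum response factor, which binds a DNA element called the CArG box and works with cofactors of the MRTF family, which respond to the pool of free actin, or of the ELK family, which respond to growth factor signalling. Several of these genes are also active in cultured mesenchymal cells, where their products form stress fibres.

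Transcripts were measured on 9 Affymetrix arrays from U87 cells, an established human glioma line, 72 h after transfection with 50 nM of a microRNA duplex. The duplex was miR-376a*A (the unedited form), miR-376a*G (the form that mimics adenosine-to-inosine editing) or a control, with 3 arrays per group and the same lipid reagent, dose and time in all. The labels call the replicates biological but do not name separate cultures or days, so a p-value here measures only the spread between these arrays. A single cell line was used, and the microRNA was delivered as a duplex rather than edited in the cell. RefSeq lists the arm long known as miR-376a* as hsa-miR-376a-5p, at chr14:101040788-101040809 on the plus strand (GRCh38.p14); it is shown to place the reagent, with the seed (bases 2 to 8) in capitals.
hsa-miR-376a-5p: gUAGAUUCuccuucuaugagua

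Over the 12587 genes fitted, a pair of arrays went against their labels, miR-376a*A replicate 1 and miR-control replicate 1. Across genes, a description since genes are no replicates, miR-376a*A replicate 1 correlated at 0.987 to 0.990 with the other control arrays and at 0.925 to 0.934 with its own group. Control replicate 1 correlated at 0.982 to 0.990 with the other miR-376a*A arrays and at 0.934 to 0.935 with its own group. Groups are given as labelled, with the 3 values of a group always in the order of replicates 1, 2 and 3, and the differences of the members are given again on the 7 arrays that remain without those 2. That choice was made on these data, so calls from the 7 arrays are not independent of it. All 6 markers of a mesenchymal glioma line (VIM, NES, CD44, S100A6, SPARC and TNC) passed the signal filter. Of 5 astrocyte markers SLC1A3 and ALDH1L1 passed, above the array median on all 9 arrays, while GFAP, AQP4 and S100B lay below it on all arrays. Of 5 markers of differentiated smooth muscle, MYH11, MYOCD and LMOD1 did not pass, and their signals reached at most 20.9, 23.9 and 18.0. DES and SYNM passed at 12.3 to 36.7, close to the array medians of 18.0 to 24.6. The summed signal of the 5 was 61.9 to 90.7 on the miR-376a*A arrays, 77.1 to 88.9 on the miR-376a*G arrays and 69.0 to 94.4 on the control arrays, and these ranges overlap. With TAGLN and CNN1 also low, several defining markers of smooth muscle were at or below the array median, so the 9 are called contractile genes here.

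Markers of other cell types did move with the arrays. All 5 fibroblast markers passed (COL1A1, COL1A2, PDGFRA, LUM and DCN), with sums of 4314 to 6457 on the miR-376a*A arrays, 3848 to 4066 on the miR-376a*G arrays and 4052 to 5884 on the control arrays. PDGFRA, for one, gave 10.7, 47.8 and 55.0 on the miR-376a*A arrays, 47.8, 7.38 and 8.80 on the control arrays and 8.31, 3.57 and 11.6 on the miR-376a*G arrays. PDGFRA, COL1A1 and COL1A2 were high where ACTA2 was high (r = 0.954, 0.968 and 0.971 over 9 arrays), whereas LUM (r = -0.34) and DCN (r = 0.37) were not. PDGFRA exceeded the array median only on those 3 arrays, so the filter partly sets its likeness to ACTA2. On the miR-376a*A and control arrays LUM went the other way, at 140 to 157 where ACTA2 was high and 374 to 405 where ACTA2 was low. Of 5 pericyte markers 4 passed (RGS5, PDGFRB, CSPG4 and ABCC9), and their list summed to 416 to 486 with miR-376a*G, above the 195 to 372 of control with no overlap. Its members did not move alike. With miR-376a*G, RGS5 (58.2 to 102) and ABCC9 (233 to 256) lay above control (30.5 to 31.1 and 39.3 to 69.6). PDGFRB lay below control (4.54 to 26.6 against 57.9 to 173), and CSPG4 (91.8 to 107) lay within the control range (34.9 to 124). The astrocyte sum was lower with miR-376a*G, at 194 to 225, than in control, at 267 to 384. Of the 2 astrocyte markers that passed, SLC1A3 was lower (138 to 167 against 236 to 347 in control). ALDH1L1 went the other way (41.2 to 42.9 against 24.0 to 27.4). The part of these markers in the differences of the contractile genes was not tested.

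Levels of ACTA2, TPM1 and SRF were high on the same 3 arrays, those of miR-376a*A replicates 2 and 3 and of control replicate 1. CALD1 was highest on those 3 arrays too, but by a small margin (1679 against 1616), and was clearly lowest on the 3 miR-376a*G arrays. MYL9 was highest on the 3 control arrays. ACTG2, TAGLN and CNN1 lay near or below the array medians throughout, and TPM2 lay above them but was dim, at 26.1 to 65.8.

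**Figure D1:**
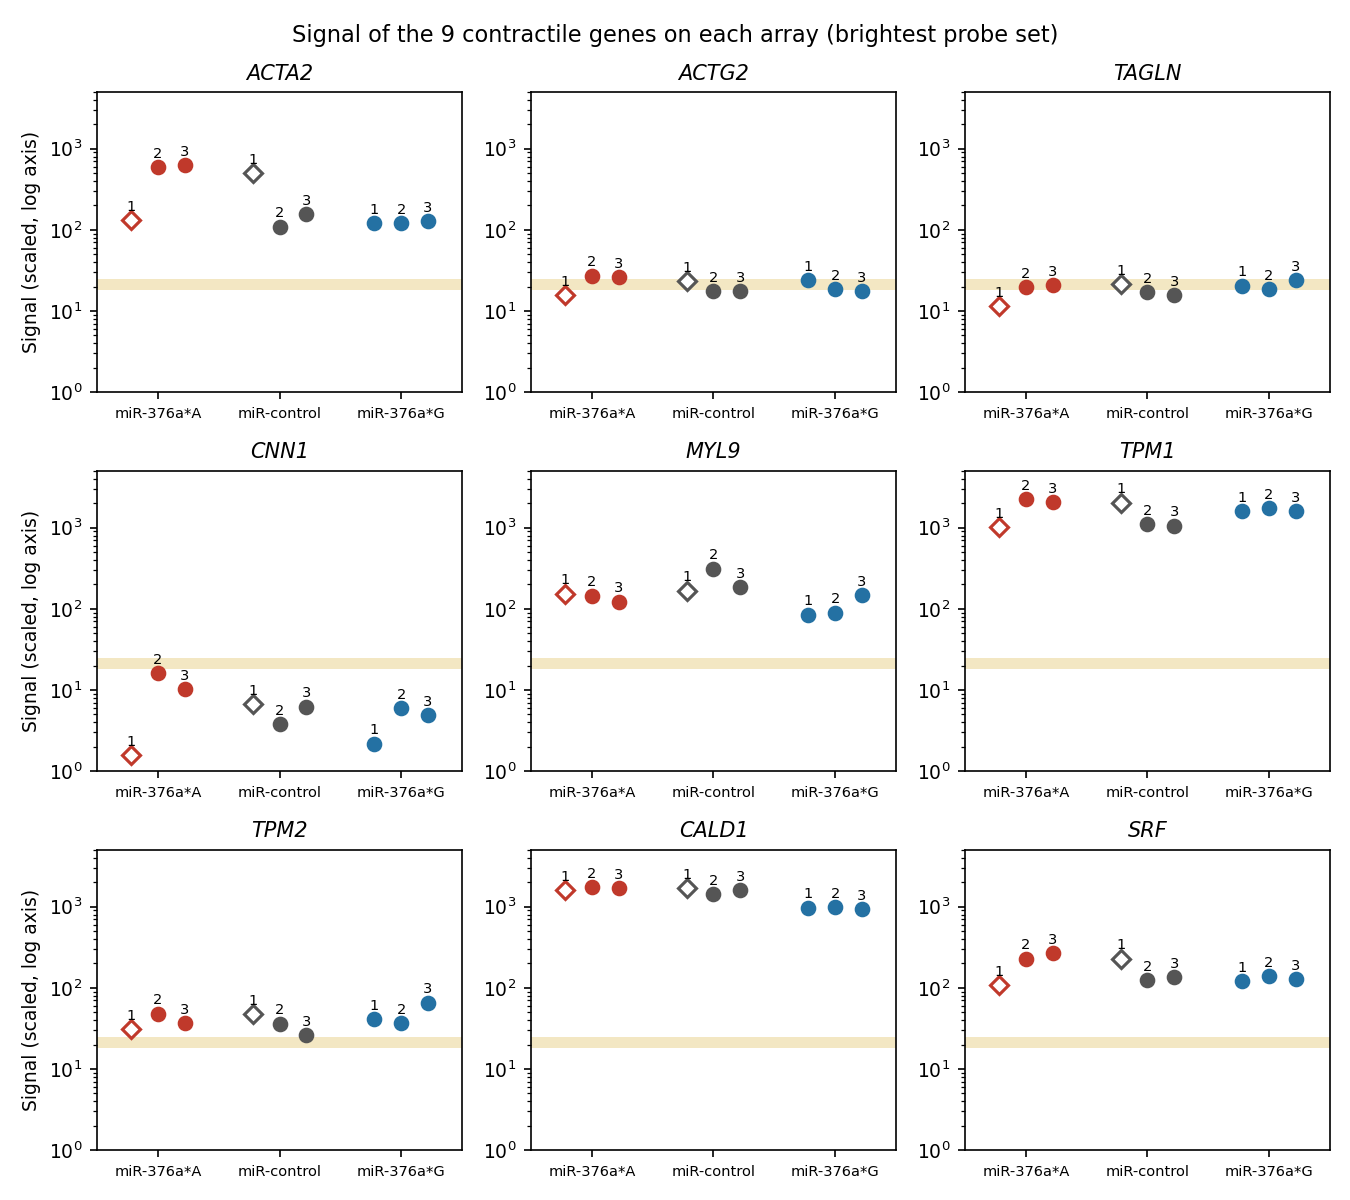
Signal of each of the 9 genes on each array (brightest probe set, log axis, no unit), with 1 point per array and the replicate number above it. Open diamonds are miR-376a*A replicate 1 and miR-control replicate 1, and the band spans the array medians, 18.0 to 24.6; ACTA2 sits at 501 to 627 on 3 arrays and at 110.0 to 155 on the other 6.

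ACTA2, the smooth muscle alpha-actin gene, gave signals of 130.5, 595 and 627 on miR-376a*A replicates 1, 2 and 3. On control replicates 1, 2 and 3 it gave 501, 110.0 and 155, and on the miR-376a*G arrays 122, 122 and 129. The high and low arrays therefore cut across the labels of the first 2 groups, while the miR-376a*G arrays were all low. The group means were 451 ± 278 (SD, n = 3), 255 ± 214 and 124 ± 4.02, so the SD within the first 2 groups was of the size of their difference. On the log2(signal + 1) scale, where changes of dim genes come out too small, the fitted difference between miR-376a*A and control was 0.83 (SE 0.67). On the 7 arrays it was 2.22 (SE 0.14). The difference between miR-376a*G and control was -0.71 (SE 0.67) with all arrays and -0.07 (SE 0.13) on the 7. The difference between the forms was 1.55 (SE 0.67), with no overlap between the groups (the nearest arrays were 130.5 and 129), and 2.29 (SE 0.13) on the 7. That difference was not called with all arrays, but was called with median centring (1.80), without miR-376a*A replicate 1 (2.29) and without control replicate 1 (1.55). The remaining ACTA2 probe sets stayed between 0.619 and 12.0, below the array median on all arrays. In bulk RNA such as this, fewer cells that express a gene and less transcript per cell cannot be told apart.

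SRF gave 108, 229 and 265 on the miR-376a*A arrays, 229, 125 and 135 on the control arrays, and 121, 140.4 and 128 on the miR-376a*G arrays. The 3 arrays with the highest ACTA2 were also those with the highest SRF, none of them below 229, while no other array exceeded 140.4. The fitted difference was 0.25 (SE 0.34) between miR-376a*A and control and 0.92 (SE 0.12) on the 7 arrays. Between the forms it was 0.53 (SE 0.34) and 0.92 (SE 0.11), and it was called without miR-376a*A replicate 1 alone. Between miR-376a*G and control it was -0.27 (SE 0.34) and, on the 7 arrays, 0.00 (SE 0.11). Scaling the arrays to the hybridisation controls instead turned the sign of the SRF difference in all 3 comparisons on 9 arrays. A dim second probe set for SRF, between 4.92 and 35.5, exceeded the array median on 1 array and did not share this pattern.

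Because ACTA2 and SRF were high on the same arrays, the stretches before their starts are shown, with that of ACTG2, the smooth muscle gamma-actin gene, for contrast. Each is the 150 bases before a transcript start in RefSeq (GRCh38.p14), 5′ to 3′ on the gene's strand. They lie at chr10:88952774-88952923 on the minus strand for the inner of the 2 ACTA2 starts listed, inside the ACTA2 gene, at chr2:73892858-73893007 on the plus strand for ACTG2, and at chr6:43171119-43171268 on the plus strand for the outer SRF start. Capitals mark a CArG box, or a 10-base match that differs from it by 1 G or C among its 6 core bases.
ACTA2: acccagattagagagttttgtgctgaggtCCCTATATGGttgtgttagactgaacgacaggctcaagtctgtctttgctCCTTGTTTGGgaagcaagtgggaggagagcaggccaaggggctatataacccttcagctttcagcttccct
ACTG2: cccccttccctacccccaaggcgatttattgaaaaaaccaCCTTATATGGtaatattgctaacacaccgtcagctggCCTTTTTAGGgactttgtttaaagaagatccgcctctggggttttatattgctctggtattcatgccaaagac
SRF: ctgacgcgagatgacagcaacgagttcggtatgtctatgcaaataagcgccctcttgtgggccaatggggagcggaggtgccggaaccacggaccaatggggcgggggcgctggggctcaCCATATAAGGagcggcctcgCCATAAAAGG
SRF and ACTG2 each hold a pair of full CArG boxes, starting 30 and 10 bases before the start in SRF and 110 and 73 in ACTG2. ACTA2 holds a pair of near matches, starting 121 and 71 bases before its start. Windows of 300 bases, from 250 before each start to 50 after it, were searched for all genes in the RefSeq table; the element is CC, then 6 core bases of A or T, then GG, which reads alike on both strands, and overlapping matches were kept. Of 35116 windows, 1.29% hold a full box, 0.0313% hold at least 2, and 8.13% hold a box or a near match. The 7 members found in the table, with 13 windows among them, include 2 with a full box and 2 more, ACTA2 and CALD1, with near matches only. These are counts of genes, some with several windows, so they cannot be set against the shares above, which are of windows. CNN1, TPM1 and TPM2 hold neither in their windows, and TAGLN and MYL9 were not matched. A match of letters is a description and not evidence of binding.

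ACTG2 itself showed a small range. Its signals were 15.6, 27.3 and 26.0 on the miR-376a*A arrays, 23.5, 17.5 and 17.5 on the control arrays, and 24.0, 18.5 and 17.4 on the miR-376a*G arrays. The groups overlap in each comparison. It exceeded the array median on only 3 arrays, the fewest the filter allows. These were miR-376a*A replicates 2 and 3 and control replicate 1, the arrays where ACTA2 was high. The likeness of ACTG2 to ACTA2 is therefore partly set by the filter. The fitted differences of ACTG2 lay between 0.03 and 0.20, each with an SE of 0.27. On the 7 arrays they were 0.58 (SE 0.27) between miR-376a*A and control, 0.17 (SE 0.25) between miR-376a*G and control and 0.41 (SE 0.25) between the forms. With the mean of its probe sets, the second of them below the median on all arrays, the difference between miR-376a*G and control was 0.91 and was called.

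TPM1, whose tropomyosin stabilises actin filaments, gave 1008, 2243 and 2086 on the miR-376a*A arrays. It gave 2036, 1099.7 and 1058 on the control arrays, and 1614, 1753 and 1593 on the miR-376a*G arrays. The 3 miR-376a*G arrays thus lay between the high and the low arrays of the other groups, unlike those of ACTA2 and SRF, which lay among the low ones. The fitted difference was 0.33 (SE 0.33) between miR-376a*A and control, and 1.00 (SE 0.08) on the 7 arrays. Between miR-376a*G and control it was 0.31 (SE 0.33), and 0.61 (SE 0.08) on the 7. Between the forms it was 0.02 (SE 0.33), a sign that turned with quantile normalization, with scaling to the hybridisation controls and without miR-376a*A replicate 2, miR-376a*A replicate 3 or miR-376a*G replicate 3, and 0.39 (SE 0.08) on the 7. All 5 TPM1 probe sets above the filter had the same 3 highest arrays. With all 9 arrays their differences ran from 0.33 to 0.63 between miR-376a*A and control. Those between miR-376a*G and control ran from -0.28 to 0.32, so their signs differed, and none was called in either comparison. On the 7 arrays the differences ran from 1.00 to 1.65 between miR-376a*A and control. Between miR-376a*G and control they ran from 0.26, which was not called, to 0.74. The probe sets with the largest highest-to-lowest ratio, 3.49 and 3.64, were also the nearest to ACTA2 in profile (r = 0.946 and 0.940 over 9 arrays). Probe sets read different parts of the transcripts, and the files do not say which isoform each one reads.

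TPM2, the second tropomyosin gene of the list, gave 30.7, 48.1 and 37.0 on the miR-376a*A arrays, 47.6, 36.3 and 26.1 on the control arrays, and 41.4, 36.6 and 65.8 on the miR-376a*G arrays. The 3 groups overlap. Its fitted differences were 0.09, 0.37 and -0.28 (SE 0.30 each) for miR-376a*A against control, miR-376a*G against control and miR-376a*A against miR-376a*G. On the 7 arrays they were 0.44 (SE 0.29), 0.58 (SE 0.26) and -0.13 (SE 0.26). None was called, but scaling to the hybridisation controls took the difference between the forms to -0.96, which was called. The remaining 3 TPM2 probe sets were below the array median on all arrays.

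CALD1 encodes caldesmon, which holds back the actin-activated myosin ATPase, and it followed another pattern. Its brightest probe set gave 1616, 1749 and 1680.4 on the miR-376a*A arrays, 1679, 1428 and 1599 on the control arrays, and 978, 989.6 and 934 on the miR-376a*G arrays. Every miR-376a*G array lay below every other array, and the miR-376a*A and control arrays overlapped. The group means were 1682 ± 66.7 (SD, n = 3), 1569 ± 128 and 967 ± 29.2. The fitted difference between miR-376a*G and control was -0.69 (SE 0.08), and -0.64 (SE 0.08) on the 7 arrays. It was no longer called with the mean of all CALD1 probe sets (-0.47, adjusted p = 0.0767 by limma). Between the forms it was 0.80 (SE 0.08) and 0.83 (SE 0.08), but 0.12 with the arrays scaled to the hybridisation controls, where it was no longer called. Between miR-376a*A and control it was 0.10 (SE 0.08), a sign that turned under that scaling, and 0.18 (SE 0.08) on the 7.

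The 10 CALD1 probe sets above the filter did not move alike. On 6 of them the 3 miR-376a*G arrays were the lowest of the 9, and on 4 the highest 3 arrays were those of ACTA2. The probe set with the largest drop, an x-type set whose probes can also bind related transcripts, gave 795, 796 and 957 on the miR-376a*A arrays, 761, 690 and 724 on the control arrays and 313, 299 and 299 on the miR-376a*G arrays. Its miR-376a*G level was lower than control, at -1.25 (SE 0.10). With each probe set fitted on its own on all 9 arrays, this set, the brightest (-0.69) and the second brightest (-0.58) were called in that comparison. The remaining CALD1 sets were not called, at -0.86 to 0.10. Another probe set combined both patterns, with 46.5, 100.01 and 98.0 on the miR-376a*A arrays, 92.6, 49.1 and 49.7 on the control arrays, and 36.4, 28.7 and 35.0 on the miR-376a*G arrays. Its profile over the 9 arrays was close to that of ACTA2 (r = 0.934), compared with r = 0.652 for the brightest CALD1 probe set. A further set gave 64.3 to 170 without keeping to either pattern, and its miR-376a*G arrays alone spanned 65.4 to 142.

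**Figure D2:**
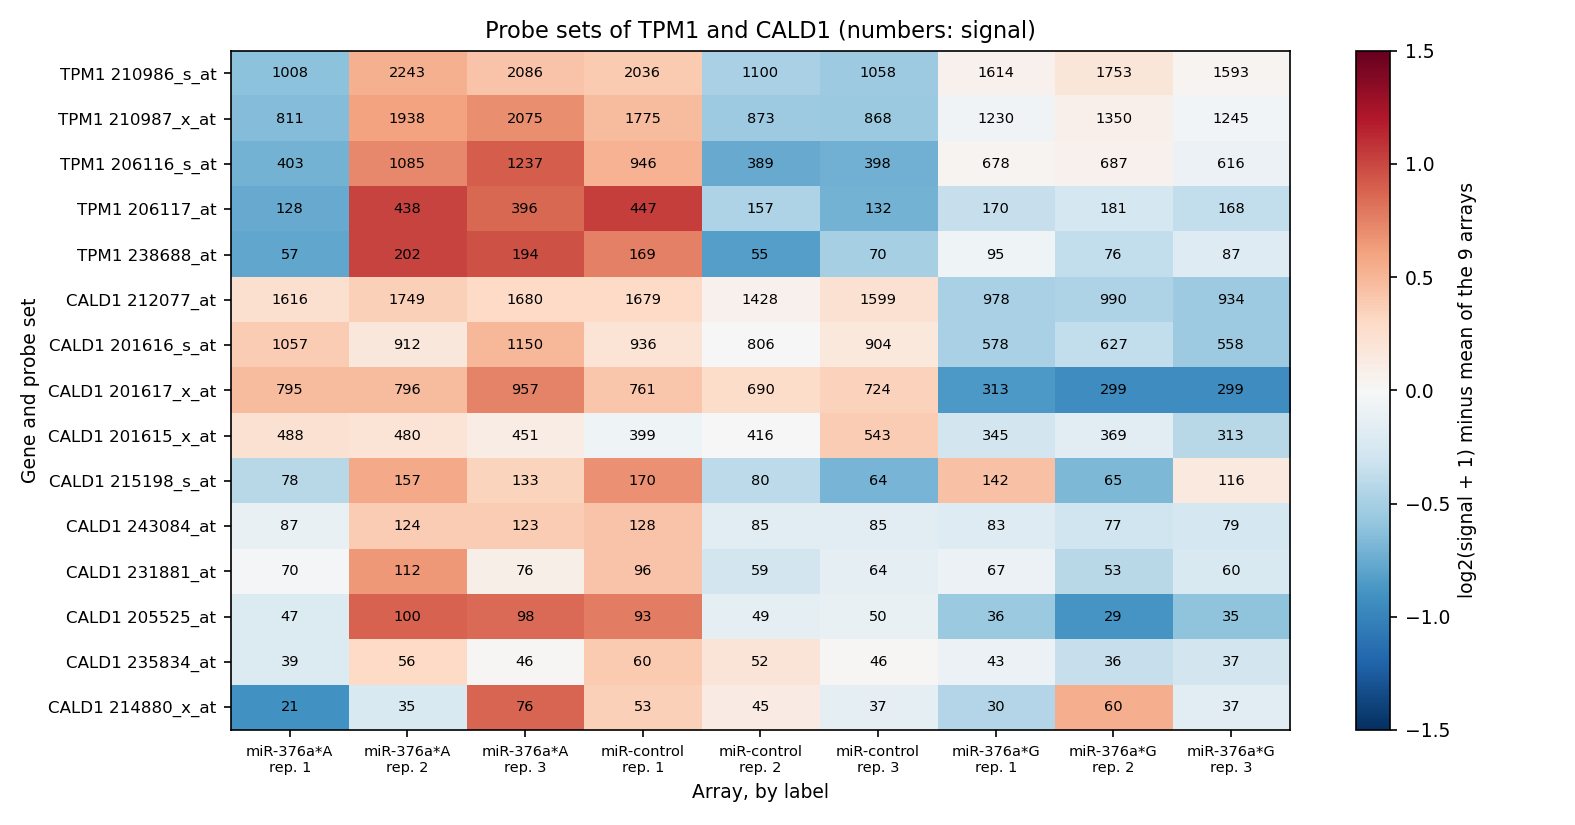
Probe sets of TPM1 (5) and CALD1 (10) above the filter in rows and the 9 arrays in columns by label. The number in each cell is the signal and the colour is its log2(signal + 1) minus the mean of the 9 arrays; the TPM1 rows are high on miR-376a*A replicates 2 and 3 and control replicate 1, and the upper CALD1 rows are low on the miR-376a*G arrays.

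MYL9, which encodes the regulatory light chain that is phosphorylated to start contraction, did not share the ACTA2 pattern (r = -0.05 over 9 arrays). Its signals were 154, 146 and 123 on the miR-376a*A arrays, 168, 314 and 185 on the control arrays, and 84.8, 89.6 and 148 on the miR-376a*G arrays. All control arrays lay above all arrays of both microRNA groups. The 2 arrays that stood apart lay at the facing edges of their labelled groups, miR-376a*A replicate 1 the highest of its group and control replicate 1 the lowest of its own. The group means were 141 ± 16.3 (SD, n = 3) for miR-376a*A, 222 ± 79.8 for control and 108 ± 35.4 for miR-376a*G. The fitted difference between miR-376a*G and control was -1.03 (SE 0.28), and -1.20 (SE 0.25) on the 7 arrays. Between miR-376a*A and control it was -0.60 (SE 0.28), and -0.84 (SE 0.28) on the 7. Between the forms it was 0.43 (SE 0.28), which turned negative under scaling to the hybridisation controls, and 0.36 (SE 0.25) on the 7. The MYL9 call between miR-376a*G and control was lost with the replicate number as a block (adjusted p = 0.052 by limma), with that scaling (adjusted p = 0.112), with the mean of its probe sets (-0.38, adjusted p = 0.142) and without miR-376a*G replicate 1, miR-376a*G replicate 2 or control replicate 2 (log2 difference -0.88, -0.92 and -0.75; adjusted p = 0.0804, 0.0755 and 0.0617). A second MYL9 probe set lay between 13.4 and 23.8.

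TAGLN and CNN1, commonly used markers of smooth muscle differentiation, were at the lower end of the arrays. The brightest TAGLN probe set gave 11.6, 19.8 and 20.6 on the miR-376a*A arrays, 21.5, 17.2 and 15.6 on the control arrays and 20.6, 18.6 and 24.2 on the miR-376a*G arrays, above the array median on 2 arrays. Another TAGLN probe set, which did exceed the median on 4 arrays, swung from 5.11 to 36.8 within the miR-376a*A group and from 8.96 to 26.0 within the miR-376a*G group. CNN1 has a single probe set, at 1.57, 15.99 and 10.2 on the miR-376a*A arrays, 6.70, 3.79 and 6.25 on the control arrays and 2.18, 6.03 and 4.91 on the miR-376a*G arrays. It lay below the array median on all arrays, and although its 3 highest arrays were those of ACTA2, no difference is claimed at this signal.

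Counted over the list as labelled, 0 of the 7 fitted genes were called between miR-376a*A and control by limma at an adjusted p under 0.05, against 0% of all 12587 genes. At an unadjusted p under 0.05 there were 0 of the 7 and 463 of all genes. Between miR-376a*G and control 2 were called, CALD1 and MYL9, both lower with miR-376a*G, against 33.4% of all genes called and 15.4% called lower. Between the forms 1 was called, CALD1, higher with miR-376a*A, against 38.2% of all genes called and 16.4% called higher. The rule may have drawn on any of these contrasts, so nothing is read from the counts. The median difference of the 7 was 0.20, -0.27 and 0.43 in the 3 comparisons, against -0.02, 0.12 and -0.14 over all genes.

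On the 7 arrays more of the list was called, as was more of everything. Between miR-376a*A and control ACTA2, TPM1 and SRF were called higher and MYL9 lower, 4 of 7 against 41.9% of all genes (19% higher and 22.9% lower). Between miR-376a*G and control TPM1 was called higher and CALD1 and MYL9 lower, 3 of 7 against 56.1% of all genes (31.2% higher and 25% lower). Between the forms ACTA2, TPM1, CALD1 and SRF were called higher with miR-376a*A, 4 of 7 against 59.6% of all genes called and 25.7% called higher. The medians of the 7 genes were then 0.58, 0.00 and 0.41, against 0.00, 0.12 and -0.12 over all genes. The 3 comparisons share groups of arrays, so their values for a gene are not independent of each other.

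**Figure D3:**
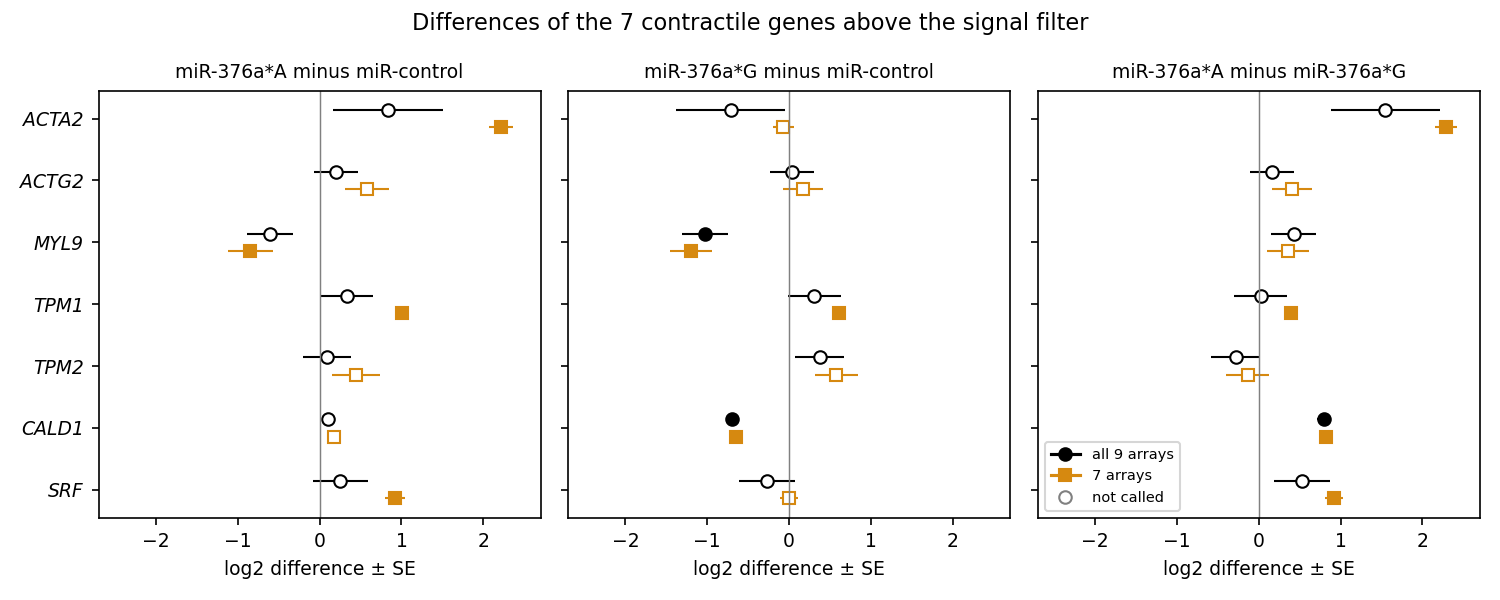
Fitted log2 difference ± SE (horizontal axis) of the 7 genes above the filter in the 3 comparisons, with all 9 arrays (black circles) and with the 7 arrays left without miR-376a*A replicate 1 and miR-control replicate 1 (orange squares). Filled symbols passed an adjusted p of 0.05 by limma; ACTA2 moves from 0.83 to 2.22 between miR-376a*A and control, while CALD1 stays at -0.69 and -0.64 between miR-376a*G and control.

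The profile of ACTA2 was shared widely. Of the 12587 genes, 1880 (14.9%), ACTA2 itself included, had the same 3 highest arrays on their brightest probe set. Among the other members TPM1, SRF and, by a small margin, CALD1 did so. By Pearson's r of log2 values over the 9 arrays, a description with no test since the arrays fall into separate sets, the 5 genes most like ACTA2 were FRMD6 (0.994), KLHDC8B (0.992), SFRP2 (0.992), ARHGAP29 (0.991) and C5orf15 (0.990). FRMD6 encodes a FERM-domain protein and SFRP2 a secreted modulator of Wnt signalling. SFRP2, for instance, gave 54.8, 161 and 153 on the miR-376a*A arrays, 152, 53.1 and 58.4 on the control arrays, and 54.9, 46.7 and 54.6 on the miR-376a*G arrays. None of the 5 was a member. Among members SRF came nearest to ACTA2 (r = 0.969, 90th of the genes fitted), followed by ACTG2 (0.801), TPM1 (0.739), CALD1 (0.652), TPM2 (0.220) and MYL9. ACTG2 passed the filter only through the arrays where ACTA2 was high, so its place in this order is not read as a result.

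The wider set of actin cytoskeleton and SRF pathway genes held 65 genes, of which 52 were fitted. ACTG1, TPM3, FLNA, FHL1 and EGR2 had no probe set of a single gene. Between miR-376a*G and control 9 of the 52 rose and 11 fell, against 18% and 15.4% of all genes, with a median of 0.04 against 0.12. Between miR-376a*A and control 0 were called, as for all genes. Between the forms 14 were higher and 10 lower with miR-376a*A, against 16.4% and 21.8% of all genes. Of these 24, 18 kept their sign under each of median centring, quantile normalization and scaling to the hybridisation controls. Of the 20 called between miR-376a*G and control, 18 did. All p-values below are adjusted over the 12587 genes by limma.

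Among the SRF cofactors, MRTFB, an actin-regulated coactivator, was lower with miR-376a*G. Its signals were 225, 248 and 221 on the miR-376a*A arrays, 226, 264 and 242 on the control arrays and 145, 142 and 144 on the miR-376a*G arrays. Against control it fell by 0.76 (SE 0.11, adjusted p = 9.72e-04), but was not called with the arrays scaled to the hybridisation controls (-0.35, adjusted p = 0.0706). ELK4, an ETS-family partner of SRF, gave 168, 99.8 and 97.0 on the miR-376a*A arrays, 85.1, 161 and 169 on the control arrays and 43.6, 54.0 and 44.5 on the miR-376a*G arrays. It fell by 1.47 against control (SE 0.30, adjusted p = 0.0053), with its high arrays the reverse of those of ACTA2 in the first 2 groups. ELK1 rose by 0.40 (SE 0.13, adjusted p = 0.0385), though not with arrays centred on their medians (0.17, adjusted p = 0.534).

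ELK3, another ETS-family partner, gave 371, 825 and 816 on the miR-376a*A arrays, 862, 416 and 363 on the control arrays and 330.2, 295 and 341 on the miR-376a*G arrays. It was high on the arrays where ACTA2 was high (r = 0.963 over 9 arrays). It was not called with all arrays, at -0.66 between miR-376a*G and control (SE 0.37, adjusted p = 0.21). On the 7 arrays it was 1.08 higher with miR-376a*A than in control (SE 0.10, adjusted p = 1.61e-05). MRTFA differed by -0.32 between miR-376a*G and control (SE 0.20, adjusted p = 0.25), a sign that turned under scaling to the hybridisation controls, and by -0.54 on the 7 arrays (SE 0.15, adjusted p = 0.00985). MYOCD, the cofactor specific to heart and smooth muscle, did not pass the filter.

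Of 5 immediate early genes fitted, which growth factor signalling switches on through SRF and its ELK partners, 3 rose with miR-376a*G against control and 0 fell, against 18% and 15.4% of all genes. IER2 rose by 0.85 (SE 0.12, adjusted p = 7.06e-04). EGR1 rose by 2.23 (SE 0.39, adjusted p = 0.00242) and FOS by 0.84 (SE 0.21, adjusted p = 0.0141). FOS was dim, above the array median on 6 arrays. It gave 34.6 to 46.7 on the miR-376a*G arrays and 20.8 to 23.4 on the control arrays, the latter close to the array medians. JUNB (0.08, adjusted p = 0.838) and MCL1 (0.22, adjusted p = 0.169) were not called, and both turned sign with median centring. Of the genes that respond to MRTF and YAP, CCN1 rose by 1.21 (SE 0.17, adjusted p = 8.76e-04), from 175 to 269 on the control arrays to 464 to 547 on the miR-376a*G arrays. CCN2, the other gene of that list fitted, differed by -0.05 (adjusted p = 0.887), a sign that turned under scaling to the hybridisation controls, and ANKRD1 did not pass the filter. In this comparison the fitted SRF difference was -0.27 (SE 0.34), or 0.00 (SE 0.11) on the 7 arrays. Whether SRF had a part in the values of these genes, called or not, was not tested.

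Among the cytoskeletal genes, PPP1CB, a catalytic subunit of the phosphatase that acts on myosin light chain, fell by 1.52 with miR-376a*G (SE 0.11, adjusted p = 2.16e-05). Its signals were 213.4 to 249.9 on the miR-376a*G arrays and 640.4 to 694 on the control arrays. Vinculin (VCL), which ties actin to focal adhesions, fell by 1.56 (SE 0.11, adjusted p = 2.42e-05), and TMOD3, which caps filament ends, fell by 0.84 (SE 0.11, adjusted p = 4.32e-04). The other genes called in that comparison, listed after their values were seen, were the cardiac actin gene ACTC1 (0.65), the light chain gene MYL12A (-0.49), the smoothelin gene SMTN (1.46), TAGLN2 (-0.71), TPM4 (-0.37), NEXN (1.47), CSRP2 (0.84), PDLIM5 (-1.75), DSTN (-0.52) and CSRP1 (-0.32). With arrays centred on their medians ACTC1 (adjusted p = 0.187) and CSRP2 (adjusted p = 0.16) were not called, and with quantile normalization ACTC1 (adjusted p = 0.06) and TPM4 (adjusted p = 0.0589) were not. Under scaling to the hybridisation controls MYL12A, TAGLN2 and DSTN were not called (adjusted p = 0.379, 0.103 and 0.252), and TPM4 and CSRP1 turned sign. Beta-actin (ACTB) differed by 0.03 (SE 0.11, adjusted p = 0.876), a sign that turned with median centring and quantile normalization.

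Comparing the forms, PPP1CB was higher with miR-376a*A by 1.58 (SE 0.11, adjusted p = 1.79e-05) and VCL by 1.47 (SE 0.11, adjusted p = 3.01e-05). IER2 was lower, at -0.97 (SE 0.12, adjusted p = 3.25e-04), as was CCN1 at -1.39 (SE 0.17, adjusted p = 3.63e-04). For the unedited form against control, the smallest p-values of the set belonged to SYNPO2 (-0.62), ACTB (0.24), CSRP2 (-0.47) and MYL6 (0.19), and the limma adjusted p was 0.886 for each; the ACTB sign turned under scaling to the hybridisation controls, and the MYL6 sign under that scaling and with quantile normalization. On the 7 arrays 21 of the 52 were higher and 8 lower with miR-376a*A than in control, against 19% and 22.9% of all genes, with a median of 0.24 against 0.00. There, 18 were higher and 14 lower with miR-376a*G than in control, against 31.2% and 25% of all genes, and 23 were higher and 12 lower with miR-376a*A than with miR-376a*G, against 25.7% and 34%.

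**Figure D4:**
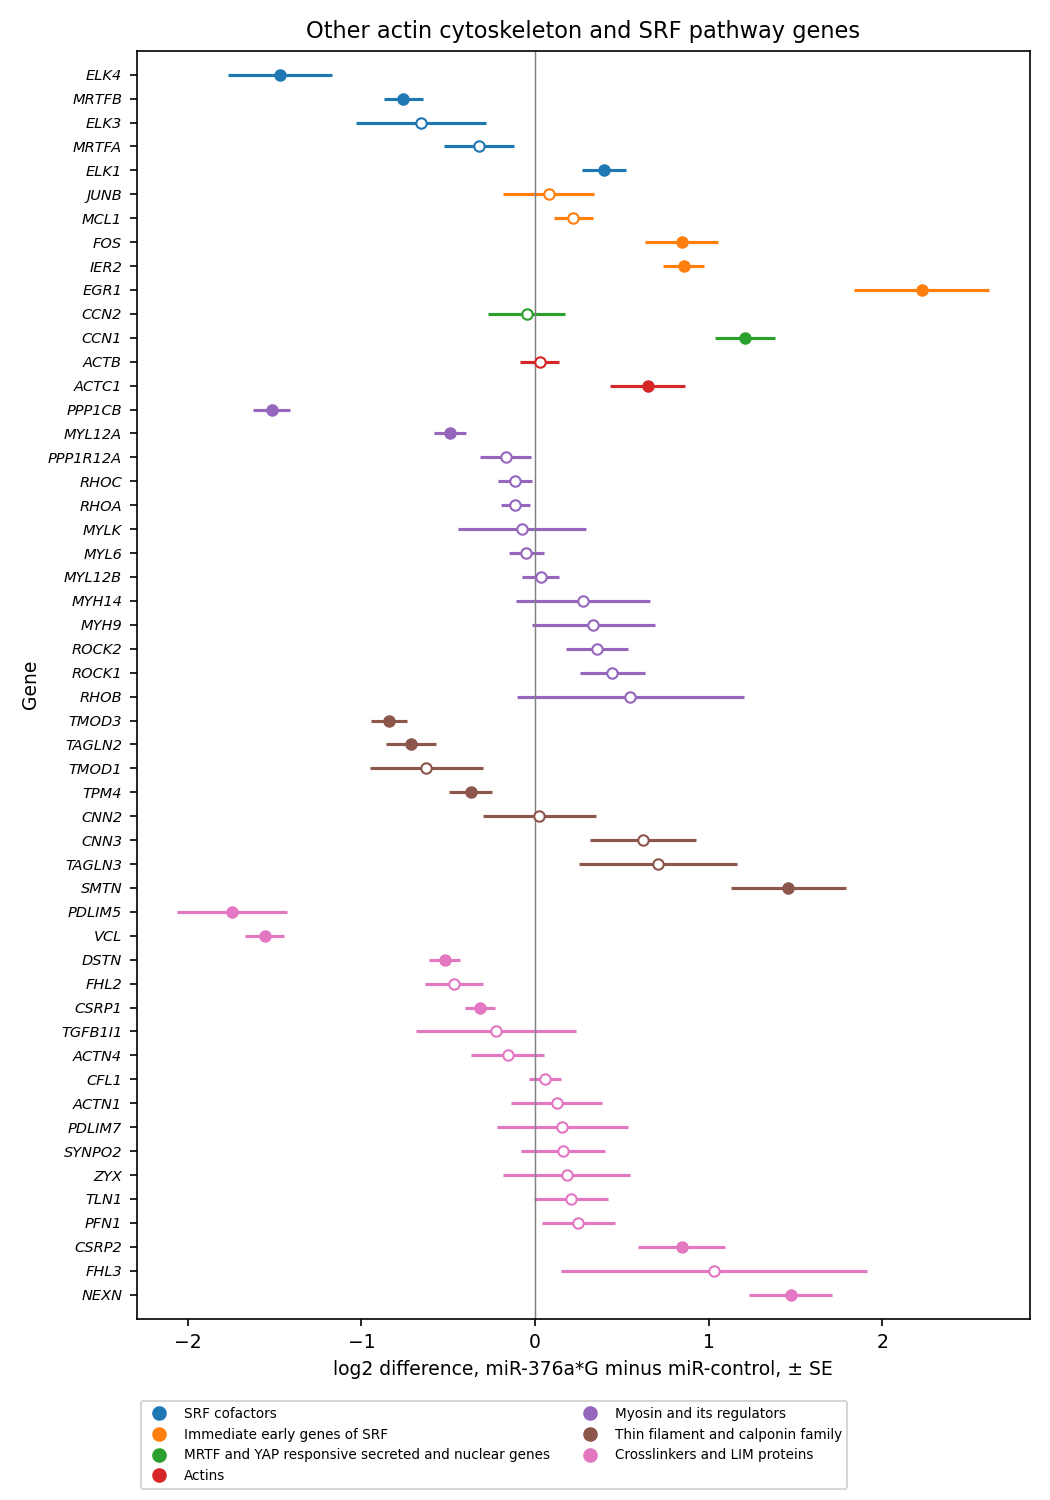
Fitted log2 difference ± SE between miR-376a*G and control, with all 9 arrays, of the 52 other actin cytoskeleton and SRF pathway genes above the filter, coloured by role. Filled points passed an adjusted p of 0.05 by limma (9 higher, 11 lower); ELK4 and PDLIM5 lie at -1.47 and -1.75, and EGR1 at 2.23.

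Across the series, values other than those of the genes moved with the groups. The mean log2 signal of the hybridisation controls was 7.81 to 7.91 on the miR-376a*A arrays, 7.50 to 7.69 on the control arrays and 7.10 to 7.27 on the miR-376a*G arrays. Scaling to them moved the median of all genes from 0.12 to 0.52 between miR-376a*G and control and from -0.14 to -0.82 between the forms, and centring on medians moved them to -0.12 and 0.11. For ACTB, whose control probe sets read both ends of the transcript, the end ratio (3′ over 5′, log2) was -0.21 to -0.13 on all arrays. For GAPDH it was -0.17 to -0.10 on the miR-376a*A arrays, -0.12 to -0.08 on the control arrays and -0.19 to -0.14 on the miR-376a*G arrays. The GAPDH ratios of the control and miR-376a*G arrays did not overlap. The part of these values in the differences was not tested.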

How the data were processed

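The authors deposited 1 linear intensity per probe set and array. The submitters' processing notes name GCOS 1.4.0.036; how probes were summarised, and the genome build, is not given in the sources used here. On each array the mean without the top and bottom 2% of values was 100.01, so the authors had scaled the arrays and a change in total messenger RNA is not seen. Symbols came from the platform's probe table (41097 probe sets with 1 gene, 1801 with several, which were left out) and were matched by Entrez number to RefSeq for 19735 of 19775 genes. Control probe sets (62) were left out.

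Values were fitted as log2(signal + 1), using for each gene the probe set with the highest mean, with limma 3.58.1 in R 4.3.3: all 9 arrays, 1 coefficient per labelled group, no covariate, 6 residual degrees of freedom, eBayes with trend. Calls are two-sided at a Benjamini-Hochberg adjusted p under 0.05 over 12587 genes. The steps were checked on simulated data that had the spread of the miR-376a*G arrays in every group. That check does not cover the spread within the miR-376a*A and control groups. The number of arrays limits the precision. The members, the wider list and the other settings were chosen with earlier results of these data known. Named are all members, all SRF cofactors, ACTB, the 4 genes of the wider list with the smallest p per comparison, and the 5 genes most like ACTA2. Other genes called from the wider list were named after their values were seen. Whether the replicate numbers pair the arrays could not be settled. Deviations of same-numbered arrays correlated at -0.88 to 0.05, but the 2 arrays that stood apart shape the deviations of their groups.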

Additional observations from a re-analysis of the deposited data

How the results depend on the processing

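Other settings were pseudocounts of 16 and 64, no signal filter, every probe set on its own, the mean of a gene's probe sets, median centring, quantile normalization, scaling to hybridisation controls, array weights, only the arrays compared, a replicate block, leaving out each array, and leaving out both arrays that stood apart. Causes were not tested.

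Members called (of 7) between miR-376a*A and control went from 0 to 4 with array weights and without both arrays, and stayed at 0 without any 1 array. Between miR-376a*G and control they went from 2 to 3 without both arrays, where TPM1 was called besides CALD1 and MYL9. They went to 1 with the replicate block or the hybridisation scaling (CALD1) and with the mean of probe sets. With that mean ACTG2 was called (0.91, adjusted p = 0.0276 by limma) and CALD1 and MYL9 were not. Members called in this comparison were 1 to 2 without any 1 array. Between the forms they went from 1 to 3 with weights, 2 with median centring and 4 without both arrays, stayed at 1 with the hybridisation scaling but for another gene (TPM2, -0.96, in place of CALD1), and were 1 to 3 without any 1 array (3 without miR-376a*A replicate 1, 2 without miR-control replicate 1). Called genes of the wider list went from 0 to 30 with weights and 29 without both arrays between miR-376a*A and control, and from 20 to 32 without both arrays between miR-376a*G and control. The replicate block called 14 of that list for miR-376a*G against control (20 without it) and 19 between the forms (24 without it).

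Signs turned as follows. With the mean of a gene's probe sets, which mixes in dim ones, miR-376a*G against control gave 0.24 for ACTA2 and 0.11 for SRF, miR-376a*A against control gave -0.17 for SRF and -0.0063 for TPM2, and the forms gave -0.69 for ACTG2 and -0.28 for SRF. With hybridisation scaling, miR-376a*A against control gave -0.076 for ACTG2, -0.17 for CALD1, -0.017 for SRF and -0.18 for TPM2; miR-376a*G against control gave 0.13 for SRF; the forms gave -0.52 for ACTG2, -0.25 for MYL9, -0.15 for SRF and -0.66 for TPM1. For ACTG2 between miR-376a*G and control, median centring gave -0.20, quantile normalization -0.20, and leaving out miR-376a*G replicate 1, control replicate 2 or control replicate 3 gave -0.10, -0.04 and -0.03 (range over single arrays -0.10 to 0.17). TPM1 between the forms was -0.10 with quantile normalization and -0.19, -0.14 and -0.0045 without miR-376a*A replicate 2, miR-376a*A replicate 3 or miR-376a*G replicate 3 (range -0.19 to 0.39). TPM2 between miR-376a*A and control was -0.08 without miR-376a*A replicate 2 and -0.13 without control replicate 3 (range -0.13 to 0.29). None of these was called under the setting that turned it.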
